A study of Rattus norvegicus with 3 samples.

Results

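Foxp3, Ctla4, Il2ra, Ikzf2, Tnfrsf18 and Tnfrsf4 are genes that regulatory T cells use, and their transcripts were followed through the stages of thymocyte development in the Lewis rat. The 6 genes were chosen by name, with earlier results of these data known, out of 34034 features in the thymocyte matrix. All 6 had counts. All cells came from the thymus of Lewis rats, an inbred strain, at 8 weeks of age, and no treatment or other genotype is given. Of the 3 samples in the study, a droplet library of thymocytes carries the results below, a droplet library of CD45-negative stromal cells is used at the end, and a spatial section was not analysed here. Each group had 1 sample and the number of animals in it is not given, so no test was run, no p-value is given, and every interval is a 95% interval for counting error alone.

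Regulatory T cells restrain other T cells, and many of them arise in the thymus from CD4 thymocytes whose receptor binds self peptide strongly. Foxp3 is the transcription factor that defines the lineage, and Ikzf2 encodes Helios, an Ikaros-family factor carried by many regulatory cells of thymic origin and by thymocytes after a strong receptor signal. Il2ra encodes CD25, the alpha chain that gives the interleukin-2 receptor its high affinity, and in the mouse CD25 is also a classical marker of a double-negative (DN) stage, before CD4 and CD8 appear. Ctla4 encodes an inhibitory receptor that competes with CD28 for CD80 and CD86. Tnfrsf18 (GITR) and Tnfrsf4 (OX40) are costimulatory receptors of the TNF receptor family, signal through NF-kB, and are known to help regulatory precursors respond to interleukin-2.

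The stretches upstream of these genes are unlike each other. Foxp3 is shown as the gene that defines the lineage, Il2ra and Ikzf2 as the members poorest and richest in CG pairs, and Tnfrsf4 for the motif it holds. They were read from the RefSeq promoter table of build GRCr8, as the 250 bases before the annotated start on the strand of the gene, 5′ to 3′. The table held 5 of the 6 members, all but Tnfrsf18. Capitals mark CG pairs in the first 3 sequences. Foxp3 (chrX:17595701-17595950, minus strand) held 8 CG pairs, Il2ra (chr17:71808476-71808725, minus strand) held 1, and Ikzf2 (chr9:78640360-78640609, minus strand) held 46. The Tnfrsf4 stretch is the last 48 bases before its start (chr5:171889086-171889133, plus strand), and its capitals mark the match to an NF-kB motif.
Foxp3: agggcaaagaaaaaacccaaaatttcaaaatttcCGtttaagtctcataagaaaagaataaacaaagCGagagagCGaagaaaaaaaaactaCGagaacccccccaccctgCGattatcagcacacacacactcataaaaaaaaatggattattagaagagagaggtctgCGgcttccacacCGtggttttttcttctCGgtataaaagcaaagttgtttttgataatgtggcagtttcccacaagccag
Il2ra: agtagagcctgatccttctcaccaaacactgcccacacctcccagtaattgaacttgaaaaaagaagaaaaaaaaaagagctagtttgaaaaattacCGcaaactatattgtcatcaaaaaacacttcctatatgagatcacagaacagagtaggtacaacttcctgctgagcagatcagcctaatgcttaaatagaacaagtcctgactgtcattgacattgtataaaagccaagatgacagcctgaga
Ikzf2: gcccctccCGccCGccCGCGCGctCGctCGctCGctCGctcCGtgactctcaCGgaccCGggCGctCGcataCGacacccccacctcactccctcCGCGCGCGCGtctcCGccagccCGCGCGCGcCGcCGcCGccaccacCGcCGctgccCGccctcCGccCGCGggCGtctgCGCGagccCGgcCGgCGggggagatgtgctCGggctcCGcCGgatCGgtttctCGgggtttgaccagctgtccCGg
Tnfrsf4: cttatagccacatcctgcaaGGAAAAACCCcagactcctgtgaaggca

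Over 33469 promoters of the same length the median was 5 CG pairs and a GC content of 51.2%. Ikzf2, with a GC content of 79.2%, had more CG pairs than 99.7% of them, and Il2ra, at 38.4%, had more than 7.83%. The other members lay between these ends, with 8 CG pairs for Ctla4 and 4 for Tnfrsf4. Of 4 motifs searched on both strands, the NF-kB motif (GGG, any 2 bases, then TTTCC) was found once, on the minus strand 28 bases before the Tnfrsf4 start, and 1.30% of all promoters hold it. TTCNNNGAA (STAT, in 7.67% of promoters), TGTTTAC (forkhead, in 3.21%) and TGANTCA (AP-1, in 6.34%) were not found in any of the 5 windows. A match is a run of letters and not a site shown to be bound, and these windows leave out introns and distant enhancers.

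The thymocyte library held 8574 barcodes, of which 8546 carried the authors' annotation. Depth was 64440495 UMIs over these cells and 3994 in the median cell, a UMI (unique molecular identifier) being the tag that counts a single RNA molecule. Each cell has the label that the authors projected onto it, or their cluster where none was projected (184 cells), and labels are spelled as deposited, without the leading word Projected. Median depth per cell ran from 3206 UMIs in double-positive (DP) cells to 23190 in DN and 23597 in Mature cycling T cells, and was 8183 in Treg, 7210 in Pre-Treg, 6077 in AgoSel1 and 11328 in AgoSel2 cells. The 28 barcodes without annotation held no UMI of any member, and 38 barcode sequences occurred in both droplet libraries. Levels are counts per 1000000 UMIs (CPM) of a label, and since the counts are not per length they are compared between labels and never between genes. Labels were made by the authors from the same cells and genes, so a high level in the label named after a gene's cell type is a description.

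Markers were checked against the labels of the stages where the members were high. The Treg label, 37 cells or 0.433% of those annotated, had Cd3e, a chain of the receptor complex, at 625 CPM, Cd4 at 193 CPM, Cd8a at 230 CPM and the proliferation gene Mki67 at 6.31 CPM. All 37 Treg cells and 52 of 55 Pre-Treg cells were in the authors' cluster Mature SP. Of 6 B cell markers, 3 had UMIs in the Treg label and summed to 461 CPM, nearly all from Cd79a, a chain of the B cell receptor complex, at 445 CPM. The defining B cell gene Ms4a1 was at 0 UMIs there, as was Ebf1. The same list summed to 271 CPM in Pre-Treg, with only Cd79a above 0, to 146 and 163 CPM in Mature CD4-1 and Mature CD4-2, to 92.7 and 53.1 CPM in AgoSel1 and AgoSel2, and to 0.776 CPM in DP-sig cells. In the B+myeloid label it summed to 698 CPM, with Cd79a at 264 and Cd79b at 97.1 CPM. Of 10 myeloid and dendritic markers, 9 were at 0 in the Treg label, and the list summed to 6.31 CPM there, 8.95 CPM in Pre-Treg, 4.92 and 5.58 CPM in the mature CD4 labels, and 8347 CPM in B+myeloid. Results taken without Cd79a-bearing or other marker-bearing cells are given beside those they concern.

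The library held 121 Foxp3 UMIs in 56 cells, 562 Ctla4 UMIs in 338 cells, 1894 Il2ra UMIs in 1207 cells, 15705 Ikzf2 UMIs in 3260 cells, 1375 Tnfrsf18 UMIs in 831 cells and 476 Tnfrsf4 UMIs in 202 cells. The Treg label held 47.1% of the Foxp3 UMIs, 15.6% of the Tnfrsf4 UMIs and 2.93% of the Ikzf2 UMIs. Among the 21 labels of at least 20 cells, Treg had the highest level for 5 of the 6 members, and 4 of those were at least 2-fold above the next label. Over 10010 genes the Treg label was highest for 2.47% and at least 2-fold above the next for 0.35%. The exception was Ikzf2, which was highest in AgoSel2, a label that was highest for 3.31% of genes and at least 2-fold above the next for 0.0899%. The labels were made from the same genes, so these counts are a description. The members had different patterns: Foxp3 was concentrated in 2 labels and Ikzf2 was spread over all of them. Il2ra had most of its molecules in DP cells, which made up 60.9% of the annotated cells.

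**Figure D1:**
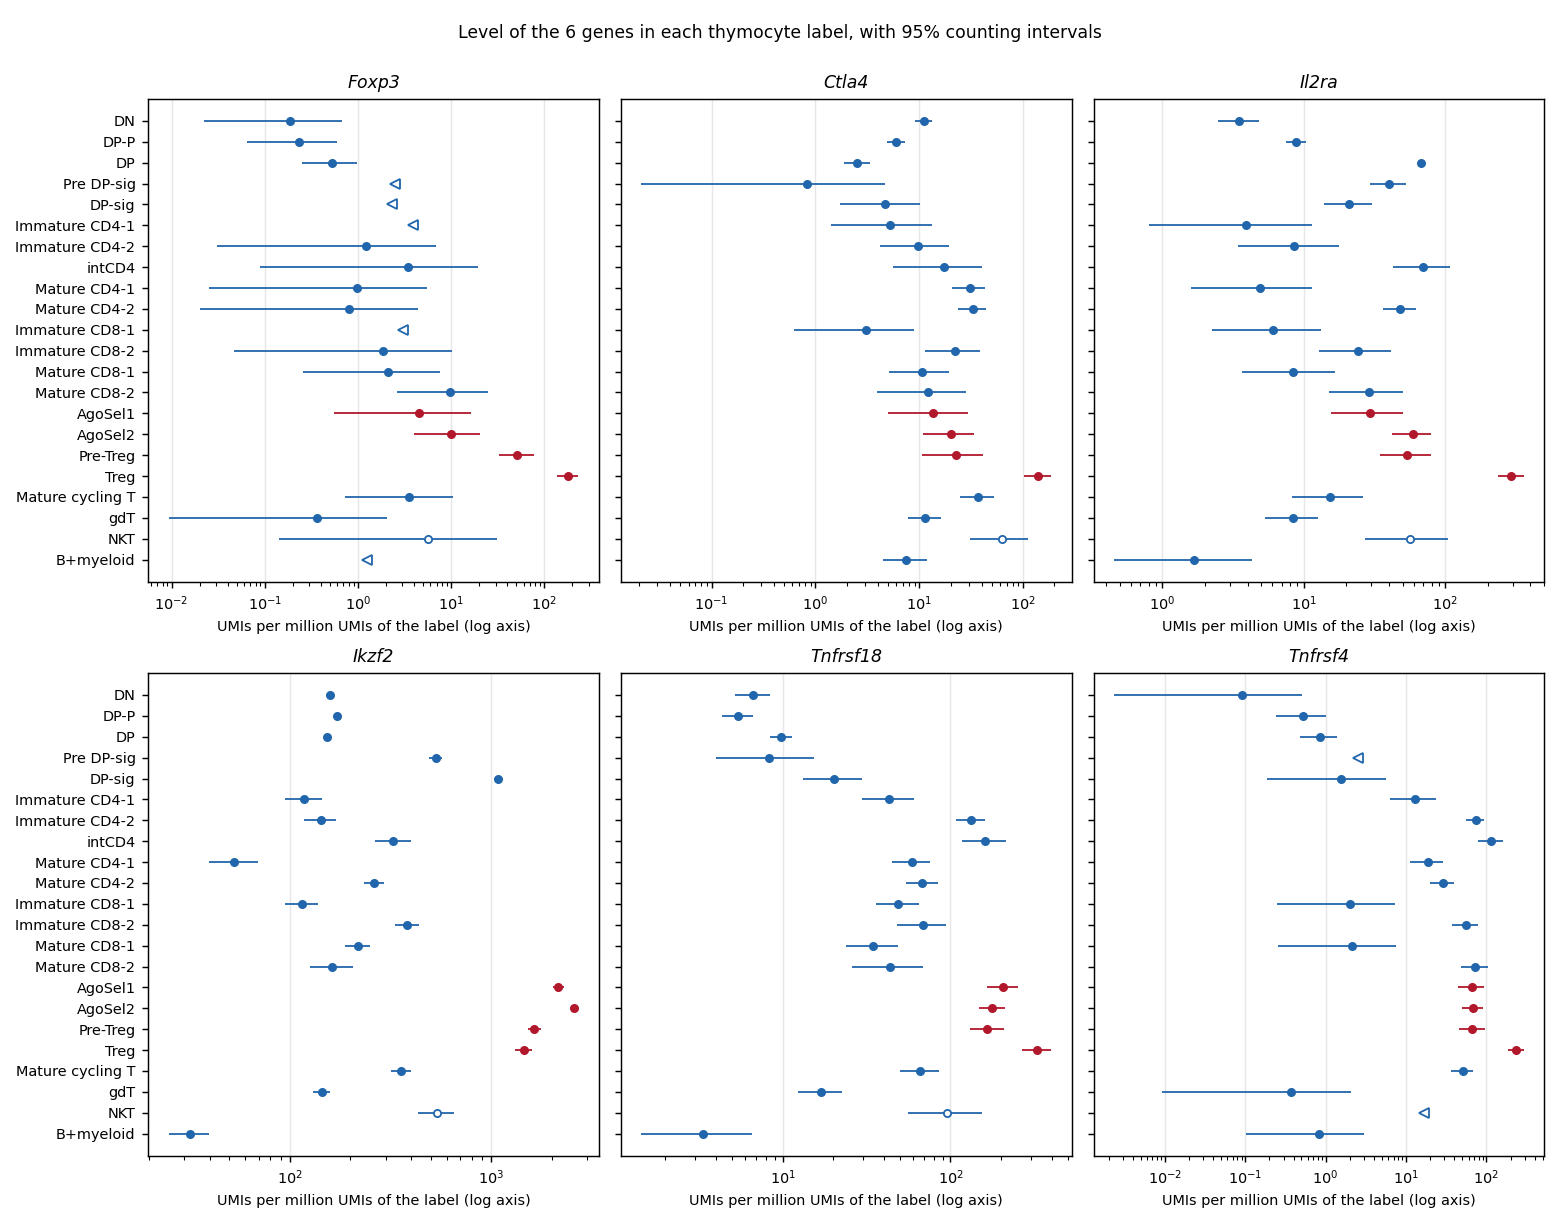
Level of each member (CPM, log axis with its own range in each panel) in each thymocyte label, with 95% intervals for counting error. Red points are AgoSel1, AgoSel2, Pre-Treg and Treg, the open circle is NKT (18 cells), and open triangles are labels with 0 UMIs drawn at the level of 3 UMIs. Treg is the highest label for all members but Ikzf2, whose highest label is AgoSel2, and the DP label stands high for Il2ra alone.

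Foxp3 was present in a minority of labels at more than a few molecules. The Treg label held 57 UMIs in 21 of its 37 cells, 180 CPM (136 to 233), with at most 7 in a cell. Pre-Treg held 23 UMIs in 4 of 55 cells, 51.5 CPM (32.6 to 77.2), and 15 of these UMIs were in 1 cell. Without that cell, Pre-Treg stood at 18.6 CPM, so 65.2% of its Foxp3 came from 1 barcode. The 30 Pre-Treg cells with no UMI of the B cell and myeloid lists held none, and the 51 with none of those markers other than Cd79a stood at 41.3 CPM.

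Outside these labels Foxp3 was scarce. AgoSel2 held 7 UMIs in 2 cells, 10.0 CPM (4.04 to 20.7), AgoSel1 held 2 UMIs, 4.52 CPM (0.548 to 16.3), and Mature CD8-2 held 4 UMIs in 1 of its 27 cells. Mature CD4-1 and Mature CD4-2 held 1 UMI each, at 0.984 and 0.797 CPM. DP cells held 10 UMIs in 10 of 5202 cells, 0.529 CPM (0.254 to 0.972), and DN cells 2 UMIs. No UMI was found in Pre DP-sig, DP-sig, Immature CD4-1, Immature CD8-1 or B+myeloid, which at 3 counts of the total allows up to 0.923% of Pre DP-sig cells and 1.02% of DP-sig cells with a Foxp3 UMI. This limits cells with a UMI and not cells expressing the gene, since the median depth was 3484 and 4010 UMIs in these labels and 16 of the 37 deeper Treg cells had none either. In the order of levels, the steps from Treg to Pre-Treg and from Pre-Treg to AgoSel2 (5.13-fold, 2.13 to 14.1) were the only ones of 20 whose interval left out 1. Most of the other steps had 3 or fewer UMIs on both sides, so they had no ratio or interval and were not compared. The step from Pre-Treg to AgoSel2 rests on the cell with 15 UMIs, since 18.6 CPM, the level without it, lies inside the AgoSel2 interval.

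Ikzf2 was the most widely detected member, with UMIs in every label. AgoSel2 had 2589 CPM (2471 to 2711), with a UMI in 56 of 58 cells, and AgoSel1 had 2150 CPM, with a UMI in 52 of 70 cells. Pre-Treg followed at 1635 CPM in 33 of 55 cells and Treg at 1449 CPM in 33 of 37 cells. Levels along the DP stages were ordered, at 154 CPM in DP, 530 CPM in Pre DP-sig and 1087 CPM in DP-sig, the DP cells that the authors' label marks as signalled. The step from DP to Pre DP-sig was 3.45-fold (3.16 to 3.76) and that from Pre DP-sig to DP-sig 2.05-fold (1.87 to 2.26). Of the 20 steps between neighbouring labels, 10 had an interval that left out 1, including the 6 from AgoSel2 down to Immature CD8-2 (382 CPM). The order of Pre-Treg and Treg turned under 5 of the other ways of counting, given at the end.

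The shares of cells with a UMI gave the same leading labels once depth was made equal. After each cell was thinned to 1000 UMIs, which left out 51 shallower cells, Ikzf2 was seen in 77.6% of AgoSel2, 59.5% of Treg, 55.7% of AgoSel1, 45.4% of DP-sig and 41.8% of Pre-Treg cells. DP and DN cells, at 11.4% and 9.49% when thinned, were at 28.1% and 66.4% unthinned, a gap that went with their depths. B+myeloid cells, taken as the background, were at 5.56% when thinned and Mature CD4-1 cells at 4.13%, while by level Mature CD4-1, at 53.1 CPM, was 1.67-fold (1.16 to 2.40) above B+myeloid, at 31.8 CPM, so no order was read from the shares. Mature CD4-2 stood above Mature CD4-1 for Ikzf2, at 262 CPM in 49 of 127 cells against 17 of 121 cells, a ratio of 4.94.

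**Figure D2:**
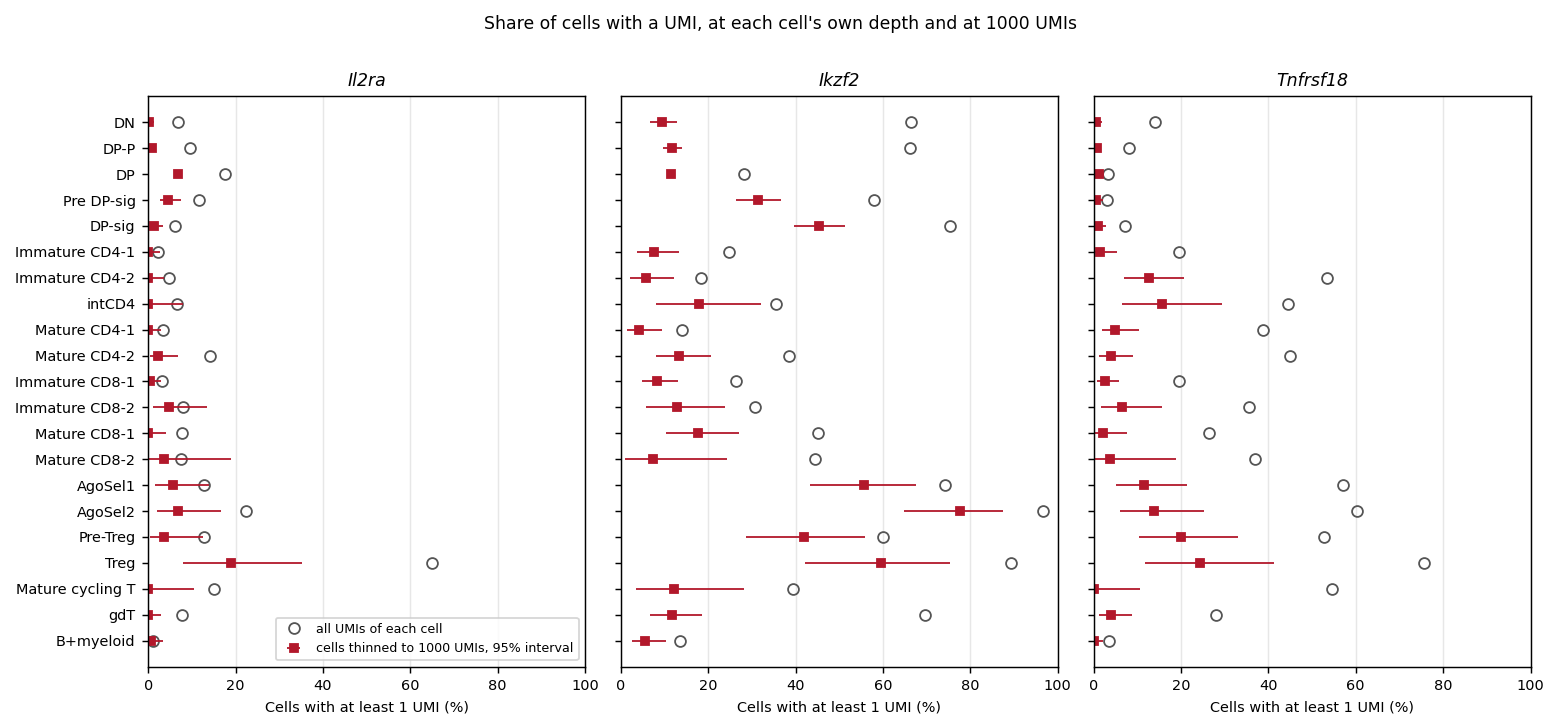
Share of cells with at least 1 UMI of Il2ra, Ikzf2 or Tnfrsf18 in each label (%), with all UMIs of each cell (open circles) and after every cell was thinned to 1000 UMIs (red squares, with 95% binomial intervals). When thinned, Ikzf2 is seen in 77.6% of AgoSel2 cells and 11.4% of DP cells, and Il2ra in 18.9% of Treg and 6.89% of DP cells.

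Il2ra was highest in the Treg label, with 93 UMIs in 24 of 37 cells, 294 CPM (237 to 360). One Treg cell held 24 of these UMIs, and the label stood at 228 CPM without it. The next label, intCD4, had 69.5 CPM (42.4 to 107) from 20 UMIs, of which 16 were in 1 cell. Treg over intCD4, 4.23-fold (2.59 to 7.23), was the only one of 20 neighbouring steps whose interval left out 1.

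In several labels a single cell held a large part of the Il2ra. AgoSel2 had 58.8 CPM (42.2 to 79.8) in 13 of 58 cells and AgoSel1 29.4 CPM (15.7 to 50.3) in 9 of 70 cells. Pre-Treg had 53.7 CPM (34.4 to 79.9), with 12 of its 24 UMIs in 1 cell and 27.6 CPM without it. Mature CD4-2 had 47.8 CPM, with 31 of its 60 UMIs in 1 cell and 23.4 CPM without it, while Mature CD4-1 had 4.92 CPM from 5 UMIs.

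Most Il2ra molecules of the library were in DP cells and not in cells named regulatory. The DP label held 1276 UMIs, 67.4% of the total, in 914 of 5202 cells, at 67.5 CPM (63.8 to 71.3). The label made up 60.9% of the annotated cells and 29.4% of all their UMIs. The Treg label, with 0.433% of the cells, held 4.91% of the Il2ra UMIs. Among these 914 cells, 670 held 1 UMI, 171 held 2 and 73 held 3 or more, with at most 15 in a cell. The level was of the same order in each part of the label, at 61.9 CPM in the cells of cluster DP1, 78.2 CPM in cluster DP2 and 77.2 CPM in cluster Early SP. In 4 depth groups of about equal size, from shallow to deep, it was 88.7, 96.3, 65.2 and 47.0 CPM, so the deepest DP cells had the lowest level. Along the DP stages Il2ra ran opposite to Ikzf2, at 40.0 CPM in Pre DP-sig (0.593 of the DP level) and 21.0 CPM in DP-sig, where DP stood 3.22-fold (2.20 to 4.90) above DP-sig.

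DN cells, in which CD25 is a classical marker in the mouse, had little Il2ra here. The DN label held 38 UMIs in 27 of 390 cells, 3.51 CPM (2.48 to 4.81). The proliferating DP-P label held 150 UMIs in 82 of 848 cells, 8.77 CPM (7.42 to 10.3). The DN level was 0.0520 of the DP level (0.0366 to 0.0718) and 0.400 of the DP-P level (0.273 to 0.574). These are ratios of CPM and not of molecules per cell. Without scaling, 27 of 390 DN cells and 914 of 5202 DP cells held an Il2ra UMI. DN cells were deeper than DP cells, yet 1 of 390 held an Il2ra UMI after thinning (0.256%), against 356 of 5164 DP cells (6.89%) and 0.617% in B+myeloid cells.

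The level was low in the sets of DN cells drawn, and in further early sets that hold cells of other labels. It was 3.32 CPM in the 192 DN cells of the authors' cluster DN and 5.21 CPM in the 151 of cluster DP-P2. All 510 cells of cluster DN, which carry several labels, had 6.09 CPM (5.02 to 7.32). The 231 cells of the DN, DP-P and gdT labels with a UMI of Kit, the stem cell factor receptor of early progenitors, had 5.18 CPM. The 111 gdT cells of cluster DN, where Kit stood at 49.5 CPM, had 8.06 CPM.

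Of the 4 members with at least 20 UMIs over DN and DP together, 1 was at least 2-fold lower in DN (Il2ra) and 1 higher (Ctla4), where 28.7% of 13161 genes were lower and 18.2% higher. Ctla4 had 120 UMIs in 64 DN cells, 11.1 CPM (9.18 to 13.2), against 2.54 CPM in DP, a ratio of 4.37 (3.10 to 6.24). Of these UMIs, 110 were in the 192 DN cells of cluster DN, at 14.1 CPM (11.5 to 16.9). The 151 DN cells of cluster DP-P2 had 4.74 CPM (2.27 to 8.72) and the 36 of cluster DP-P3 held none. Ikzf2 did not differ in CPM beyond counting error, with a ratio of 1.03 (0.970 to 1.09), and Tnfrsf18 was at 0.676 (0.508 to 0.892). Against DP-P, Il2ra was the 1 member of 4 that was at least 2-fold lower and none was higher, where 4.23% of genes were lower and 3.51% higher.

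By its own transcripts the DN label is not a pure double-negative set, since it held Cd8a at 702 CPM, Cd4 at 150 CPM, Rag1 at 298 CPM and Mki67 at 450 CPM. Of 20 genes of the DN stages, 16 could be compared with DP, and 6 were at least 2-fold higher and 2 lower. Hes1, a Notch target, was 26.3-fold higher, the interleukin-7 receptor gene Il7r 11.9-fold, Kit 10.8-fold and Erg 3.62-fold. Lyl1, a progenitor transcription factor, was at 0.283 of the DP level, and Rag1, which cuts the receptor genes, at 0.153. All 10 genes of the cycling list were higher in DN, from 7.2-fold for Stmn1 and 14.1-fold for Pcna to 66.2-fold for Cdk1, 71.9-fold for Top2a and 96.2-fold for Ccna2, and Mcm5 was 36.0-fold higher. Their part in the Il2ra difference was not tested.

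Ctla4 was highest in Treg, with 44 UMIs in 15 of 37 cells, 139 CPM (101 to 186). Behind it came Mature cycling T with 36.7 CPM (24.9 to 52.0), Mature CD4-2 with 32.7 CPM (23.5 to 44.4) and Mature CD4-1 with 30.5 CPM (20.7 to 43.3). The 18 NKT cells, too few to enter the order, had 62.1 CPM (31.0 to 111). Pre-Treg at 22.4 CPM (10.7 to 41.1) and AgoSel2 at 20.1 CPM (11.0 to 33.7) lay among the mature labels and not above them. Pre DP-sig was lowest, with 1 UMI in 325 cells. Below Treg, no neighbouring pair of the order was apart beyond counting error.

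Tnfrsf18 and Tnfrsf4, which lie next to each other in the GRCr8 annotation, both peaked in the Treg label. For Tnfrsf18, Treg had 104 UMIs in 28 of 37 cells, 328 CPM (268 to 398), above AgoSel1 at 206 CPM (166 to 253), AgoSel2 at 178 CPM, Pre-Treg at 166 CPM and intCD4 at 160 CPM. Immature CD4-2 had 132 CPM, 3.08-fold (2.07 to 4.70) above Immature CD4-1, and between AgoSel1 and Immature CD4-2 no neighbouring labels were apart beyond counting error. Mature CD4-2 and Mature CD4-1 had 67.8 and 59.1 CPM. DP-sig had 20.2 CPM, DP 9.83 CPM and DN 6.65 CPM, against 3.35 CPM in B+myeloid, and DN over B+myeloid, at 1.99 (0.956 to 4.78), was not apart from 1.

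Tnfrsf4 had a wider range, since it was nearly missing before the single-positive stages. Treg held 74 UMIs in 21 cells, 234 CPM (183 to 293), intCD4 115 CPM (78.9 to 161), Immature CD4-2 73.5 CPM and Mature CD8-2 72.5 CPM. AgoSel2, Pre-Treg and AgoSel1 stood together at 67.4, 67.1 and 65.6 CPM. DP-sig held 2 UMIs (1.55 CPM), DP 16 (0.846 CPM), DN 1 (0.0923 CPM) and Pre DP-sig none in 325 cells. Immature CD4-2 stood 5.64-fold above Immature CD4-1. Mature CD8-2 stood 34.4-fold (8.72 to 297) above Mature CD8-1, on 30 against 2 UMIs. The markers of Mature CD8-2 go against its name, with Cd4 at 188, Cd8a at 184 and Cd8b at 29.0 CPM, where Mature CD8-1 had 67.5, 585 and 232 CPM, and their part in the Tnfrsf4 difference was not tested. For Mature CD4-2 and Mature CD4-1, at 28.7 CPM (20.1 to 39.7) and 18.7 CPM (11.3 to 29.2), the intervals overlapped.

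Counting how many of the 6 genes each cell held set the Treg label apart from the stages before it. Among Treg cells, 23 of 37 (62.2%) held UMIs of 4 or more members, and none held 0. The count was 8 of 58 in AgoSel2, 5 of 55 in Pre-Treg, 5 of 33 in Mature cycling T, 5 of 127 in Mature CD4-2, 0 of 121 in Mature CD4-1 and 0 of 5202 in DP. Depth moves with this count: cycling and AgoSel2 cells are deep and DP cells shallow.

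**Figure D3:**
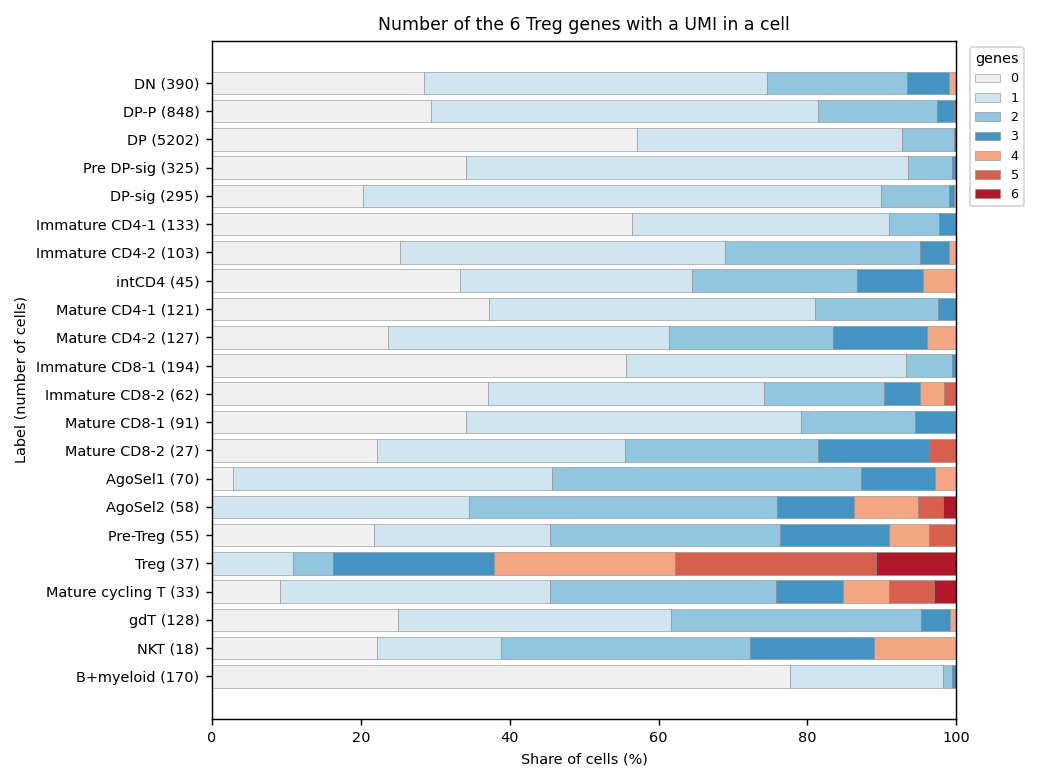
Share of the cells of each label (%, number of cells in brackets), split by colour by how many of the 6 members had a UMI in the cell. In Treg 62.2% of cells held 4 or more members, in Pre-Treg 9.09% and in DP none.

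Foxp3-bearing cells differed by label in how many other members they held. Of the 56 cells with a Foxp3 UMI, 21 were in Treg, 4 in Pre-Treg, 4 in the AgoSel labels, 15 in DN, DP-P or DP, and 12 elsewhere. At least 3 of the other 5 members were present in 18 of the 21 Treg cells, 3 of the 4 Pre-Treg cells and all 4 AgoSel cells, in 5 of the 12 cells elsewhere, of which 1 had none, and in 2 of the 15 DN, DP-P and DP cells, of which 7 had none. Median depth moved with these counts, at 4795 UMIs in the 15 DN, DP-P and DP cells, 8510 in the Treg cells, 10533 in the Pre-Treg cells, 11504 in those elsewhere and 11988 in the AgoSel cells, and its part was not tested. Of 14 cells with 3 or more Foxp3 UMIs, 3 lay outside Treg and Pre-Treg, and each of those held at least 3 other members. Those 3 cells were deep, with a median of 25259 UMIs against 12243 in all 14, and the part of depth was not tested. Among the 16 Treg cells without a Foxp3 UMI, 10 held at least 3 other members. The Il2ra level of these 16 cells was 238 CPM against 328 CPM in the 21 cells with one. These levels have no interval and were not recomputed without the Treg cell richest in Il2ra, so no order is read from them. Within Treg, pairs of members occurred together about as often as their shares give: Foxp3 with Il2ra in 15 cells against 13.6, and Il2ra with Tnfrsf18 in 22 against 18.2. In AgoSel2, Il2ra met Tnfrsf4 in 6 cells against 1.79, on 13 and 8 cells that held them, and deep cells hold more of every gene.

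Against the mature CD4 labels, with Mature CD4-1 and Mature CD4-2 pooled, all 6 members were at least 2-fold higher in Treg. The labels were made from the same genes, so this count is a description. Of 8327 genes with at least 20 UMIs over both sides, 6.38% were that much higher and 10.1% that much lower, and the median log2 ratio was 3.19 for the members and -0.07 for all genes. Foxp3 was 204-fold higher (54.0 to 1727), from 57 against 2 UMIs, and could be compared only through its Treg UMIs. Il2ra was 10.3-fold higher (7.39 to 14.3), Tnfrsf4 9.64-fold (6.71 to 13.9) and Ikzf2 8.59-fold (7.48 to 9.86). Tnfrsf18 was 5.14-fold higher (3.96 to 6.66) and Ctla4 4.38-fold (2.94 to 6.46). The pooled labels differed for 2 members. For Il2ra, Treg stood 59.6-fold (24.7 to 188) above Mature CD4-1 and 6.13-fold (4.39 to 8.63) above Mature CD4-2. For Ikzf2, the 2 labels had 53.1 and 262 CPM against 1449 CPM in Treg. Markers of the 2 labels differed as well, with Rag1 at 10.8 CPM, Cd8a at 95.5 CPM and Cd8b at 46.3 CPM in Mature CD4-1 and at 199, 303 and 220 CPM in Mature CD4-2, and their part was not tested. Cd79a was higher in Treg as well. Keeping only cells with no UMI of the other B cell and myeloid markers left 33 of 37 Treg cells and gave Foxp3 181-fold, Il2ra 10.2-fold, Tnfrsf4 10.9-fold and Ctla4 4.38-fold. With Cd79a counted too, 9 Treg cells were left, and Il2ra was 23.5-fold higher and Ctla4 9.56-fold. After thinning to 1000 UMIs, Ctla4 and Il2ra were both 16.8-fold higher and Foxp3, with 0 UMIs left in the mature CD4 cells, at least 15.6-fold. These ratios have no interval and rest on few molecules. Thinned Ctla4 was seen in 9 Treg, 2 Mature CD4-1 and 2 Mature CD4-2 cells, and thinned Il2ra in 7, 0 and 3.

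Among those that could be compared, other genes known from regulatory T cells were mostly higher in Treg as well. Of 22 such genes, 13 had enough counts, 8 were at least 2-fold higher in Treg and 0 lower, with a median log2 ratio of 1.76. For each list in this comparison the shares over all genes were 6.38% higher and 10.1% lower. Capg, Tigit, Prdm1, Nrp1 and Ccr8 reached the 20 UMIs needed only with their Treg UMIs, so the filter favoured a higher call for them. Capg, an actin-capping protein, was at least 78.8-fold higher, and the inhibitory receptor gene Tigit at least 52.5-fold, both with no UMI in the mature CD4 labels and set against 3 UMIs. Prdm1, encoding the transcription factor Blimp-1, was 55.5-fold higher (19.6 to 217) and Nrp1, a surface receptor carried by thymic regulatory cells, 17.9-fold (8.31 to 41.8). Itgae, the integrin chain CD103, was at 0.865 (0.333 to 1.90) and Irf4 at 0.860 (0.166 to 2.82), neither apart from 1.

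Genes of TNF receptor costimulation and NF-kB were in large part higher. Of 15, 13 were compared, 8 were at least 2-fold higher and 0 lower, with a median log2 ratio of 1.36. Tnfrsf9 (4-1BB, a receptor related to OX40 and GITR) was 25.9-fold higher (16.1 to 43.0). The NF-kB target Birc3 was 4.87-fold higher, and the NF-kB subunit genes Rel and Nfkb2 4.09-fold and 3.77-fold. Cd27 at 1.15 and Traf2 at 0.977 were near 1. Relb at 2.00 and Nfkb1 at 1.99, named after their values were seen, lay just inside and just outside the 2-fold line.

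The interleukin-2 receptor and STAT5 genes lay on both sides: of 16, 13 were compared, 4 were higher and 3 lower, and the median log2 ratio was -0.10. Il2rb, the beta chain that signals beside CD25, was 13.3-fold higher (6.70 to 27.6), the survival gene Bcl2l1 5.04-fold (3.36 to 7.49) and Stat5a 3.27-fold (1.85 to 5.59). Cish, a feedback inhibitor, was at 2.15 (0.706 to 5.55). Socs3 was at 0.398 (0.0464 to 1.55) and Il15 at 0.243 (0.0287 to 0.917), each from 2 UMIs in Treg.

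In the CD28 family, 5 of 8 genes were compared, 3 were higher and 0 lower. Cd80, the ligand that CTLA-4 and CD28 share, was 37.6-fold higher in Treg (12.7 to 151), from 21 against 4 UMIs, and the costimulatory receptor gene Icos, a neighbour of Ctla4 in the GRCr8 annotation, 3.39-fold. Btla was 2.47-fold higher, Cd274 at 1.39, and Cd28, the gene on the other side of Ctla4, at 0.855. Of 14 partners and repressed genes of Foxp3, 11 were compared, 1 was higher and 3 lower, with a median log2 ratio of -0.76. Gata3, a transcription factor of CD4 cells, was 2.95-fold higher (2.29 to 3.78), while Foxo3 at 1.25, Foxo1 at 1.15 and Runx3 at 1.06 were near 1. Bach2 at 0.444 (0.375 to 0.523) and Pde3b, a gene that Foxp3 is known to repress, at 0.362 (0.238 to 0.529) were lowest.

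**Figure D4:**
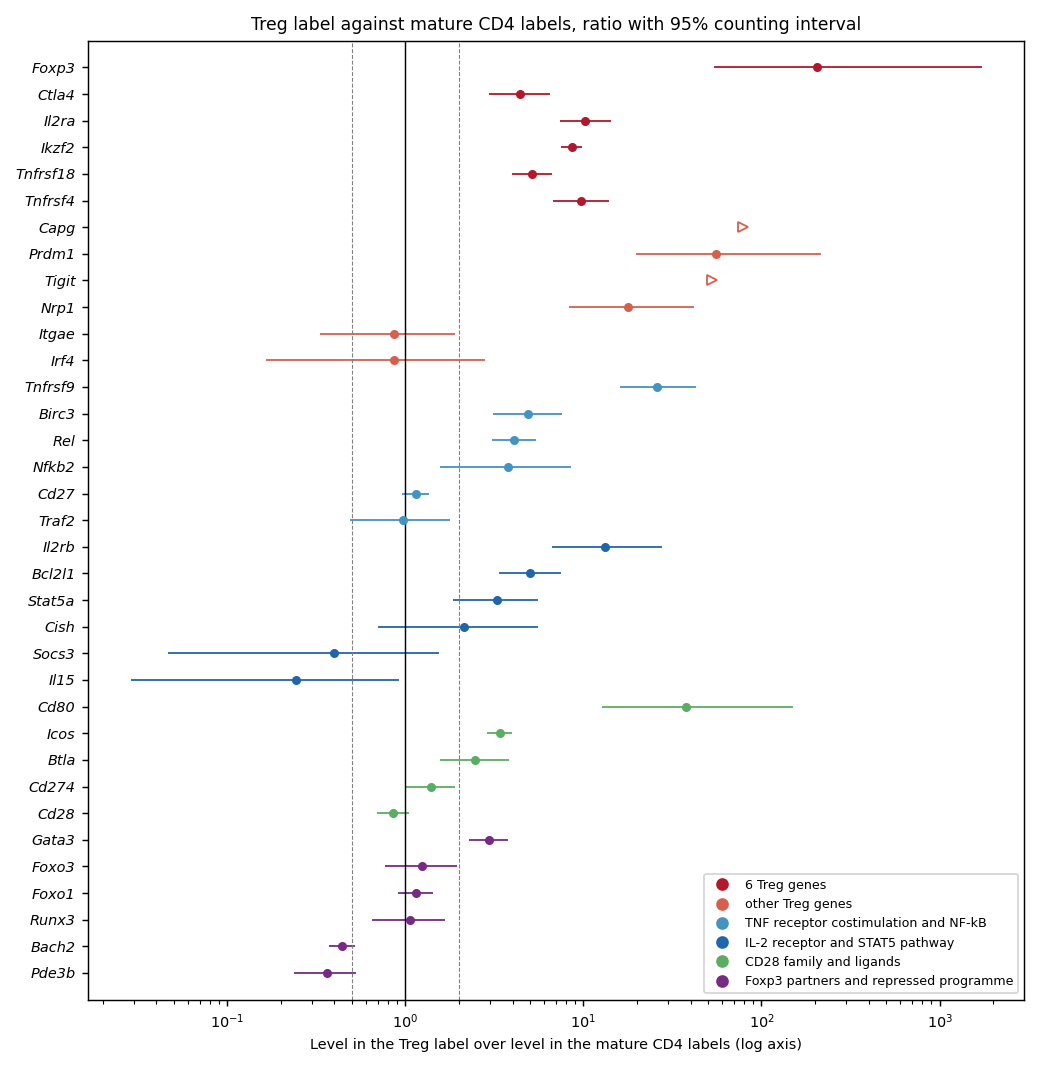
Level in the Treg label over that in the mature CD4 labels (log axis, with 95% intervals for counting error) for the members and the named genes of 5 lists, coloured by list; triangles are lower bounds, the solid line marks equal levels and the dashed lines a 2-fold difference. The members lie from 4.38-fold to 204-fold above equal levels, and Bach2 and Pde3b lie below the lower dashed line.

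Pre-Treg cells, set against the same mature CD4 cells, had a part of this pattern. Of the 6 members, 4 were at least 2-fold higher and 0 lower, where 3.07% and 6.90% of genes were. Foxp3 was 58.4-fold higher (14.4 to 511), from 23 against 2 UMIs, and 21.1-fold without the cell that held 15 of the 23. Foxp3 reached the minimum of UMIs to be compared only through its Pre-Treg UMIs, so the filter favoured a higher call. Without that cell it would fall below the minimum, so its place among the 4 rests on 1 cell. The 30 cells with no UMI of the B cell and myeloid lists held no Foxp3. Ikzf2 was 9.69-fold higher (8.55 to 11.0), Tnfrsf4 2.77-fold (1.71 to 4.40) and Tnfrsf18 2.59-fold (1.93 to 3.45). Il2ra was at 1.88 (1.12 to 3.04), a value carried by 1 cell and at 0.963 without it, and Ctla4 at 0.705 (0.325 to 1.37). Of the other regulatory T cell genes, 9 were compared, 1 was higher and 1 lower. Both comparisons share the mature CD4 cells.

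Set directly against Pre-Treg, the Treg label was at least 2-fold higher for 4 of 6 members and lower for 0, where 5.93% and 5.51% of genes were. Ctla4 was 6.21-fold higher (3.08 to 13.8), Il2ra 5.47-fold (3.46 to 8.96), Tnfrsf4 3.48-fold (2.25 to 5.51) and Foxp3 3.50-fold, at 180 against 51.5 CPM, where Pre-Treg stood at 18.6 CPM without its top cell. Tnfrsf18 at 1.98 (1.46 to 2.71) was just outside the 2-fold line. Ikzf2 was at 0.886 (0.786 to 0.997) and came out above 1 when the Pre-Treg cell with 131 Ikzf2 UMIs was left out. Of the other regulatory T cell genes, 8 of 10 compared were higher in Treg and 0 lower. The B cell list differed too, at 461 against 271 CPM, and its part in these ratios was not tested beyond the filters given above.

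The AgoSel labels, compared with DP-sig cells, had high GITR and OX40 message and little Foxp3. In AgoSel1, 2 of 4 members compared were at least 2-fold higher and 0 lower, where 4.23% and 7.83% of genes were. Tnfrsf4 was 42.2-fold higher (10.7 to 365), from 29 against 2 UMIs, and Tnfrsf18 10.2-fold (6.53 to 16.4). Ikzf2 at 1.98 (1.82 to 2.15) was just under the 2-fold line, and Il2ra at 1.40 (0.664 to 2.81) was not apart from 1. Of 13 genes that respond to receptor signal, 4 were higher and 1 lower: the death gene Bcl2l11 was 6.32-fold higher, Nr4a3 5.14-fold, Nr4a1 3.31-fold and Egr3 3.30-fold, whereas Cd5 was at 0.523 and Tox at 0.471. TNF receptor and NF-kB genes were higher for 9 of 12 compared and lower for 0.

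In AgoSel2, all 5 members compared with DP-sig were at least 2-fold higher, where 7.89% of genes were higher and 13.1% lower. Tnfrsf4 (47 against 2 UMIs) and Ctla4 (14 against 6) reached the 20 UMIs needed only with their AgoSel2 UMIs, so the filter favoured these calls. Tnfrsf4 was 43.4-fold higher (11.4 to 369), Tnfrsf18 8.81-fold (5.74 to 14.0), Ctla4 4.31-fold (1.56 to 13.7), Il2ra 2.81-fold (1.69 to 4.74) and Ikzf2 2.38-fold (2.22 to 2.56). Foxp3, with 7 UMIs against 0 and below the count needed to be compared, was at least 4.31-fold higher against 3 UMIs. In the rest of the Ikaros family, Ikzf4 (Eos, a partner of Foxp3) was 40.7-fold higher (6.57 to 1678), from 22 against 1 UMI, while Ikzf3 was at 0.927, Ikzf5 at 0.627 and Ikzf1 at 0.413. TNF receptor and NF-kB genes were higher for 8 of 12 and lower for 1, and receptor signal genes higher for 1 of 12 and lower for 5. Cd79a differed along with the members, and in the cells with no UMI of the other B cell and myeloid markers Tnfrsf18 was 10.5-fold higher in AgoSel1 and 9.69-fold in AgoSel2.

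Between the AgoSel labels, which share DP-sig as their reference above, 1 of 5 members was at least 2-fold apart. Il2ra was 2.00-fold higher in AgoSel2 (1.05 to 4.07), on 41 against 13 UMIs, at the 2-fold line. Ikzf2 was 1.20-fold higher (1.11 to 1.30), and Ctla4 at 1.48, Tnfrsf4 at 1.03 and Tnfrsf18 at 0.864 were not apart from 1. Over all genes, 6.37% were higher and 6.84% lower. Against Treg, AgoSel2 had 1.79 times the Ikzf2 level (1.61 to 1.98), while Treg had 17.9 times the Foxp3 level of AgoSel2 (8.16 to 46.6) and 4.99 times its Il2ra level (3.42 to 7.39).

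For each member the genes with the most similar levels across the 21 labels were sought among 10805 genes with at least 100 UMIs, by Pearson correlation of log2(CPM + 10). The labels share 1 library and differ in depth, so these are descriptions. Foxp3 was most like Ikzf4 (r = 0.926), Ppp1r3f (0.896) and Mfsd4a (0.890). Ppp1r3f overlaps Foxp3 in the GRCr8 annotation and stood at 91.5 CPM in Treg and 3.75 CPM in DP. Ccdc22 overlaps Foxp3 too, at 18.9 CPM in Treg and 13.8 CPM in DP. Whether the counting used strand is not given in the sources used here. Reads of these genes and of Foxp3 therefore cannot be told apart with certainty, the few Foxp3 UMIs of DP cells included. Ctla4 was most like Chst2 (0.900), Cblb (0.861) and Il18r1 (0.859), of which Cblb encodes a ligase that restrains T cell activation. Il2ra was most like Ankrd61 (0.833), Zfp788 (0.810) and Giot1 (0.752). Ikzf2 was most like Ezr (0.817), Gnal (0.792) and Il2rb (0.778), whose product pairs with CD25. Tnfrsf18 and Tnfrsf4 were each other's closest gene (0.905), followed for both by Sdhaf1 (0.892 and 0.875), then by Giot1 (0.879) for Tnfrsf18 and Ddit4 (0.837) for Tnfrsf4. Among the members, the other pairs ran from 0.344 for Ctla4 with Ikzf2 to 0.741 for Foxp3 with Ctla4.

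The stromal library, which the choice of labels above did not use, held 13226 annotated cells with 131624350 UMIs. Foxp3 had 26 UMIs and Ctla4 15 in all of it. In its 411 cells labelled Thymocyte, with a median depth of 2648 UMIs, Il2ra had 62.9 CPM (51.6 to 76.0) in 56 cells and Ikzf2 312 CPM (286 to 339) in 140 cells. The same cells had Rag1 at 959, Cd8a at 868 and Cd3e and Cd4 at 578 CPM each, but also the fibroblast collagen gene Col1a1 at 1615 CPM and the epithelial keratin gene Krt5 at 35.0 CPM. The part of stromal RNA in these levels was not tested. Foxp3 had 1 UMI in these cells, and 1 of the 411 held 4 or more members.

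Il2ra was not a lymphoid message alone in the stroma. The medullary epithelial label mTEC1 had 1506 UMIs in 200 of 482 cells (41.5%), 234 CPM (222 to 246), with a median of 4 UMIs per cell that held any and up to 70. The label mTEC-prol had 208 CPM (185 to 234) in 39 of 76 cells. In mTEC2, 117 CPM came from 8 of 61 cells, and 79 of the 102 UMIs were in 1 cell, without which the level was 27.3 CPM. Early Pr cells had 12.3 CPM, cTEC 3.61 CPM and the mesenchymal label TMC2 0.600 CPM. In the 397 mTEC1 cells with no UMI of the thymocyte marker list the level was 235 CPM, from 164 cells that held it. Within mTEC1 it followed the authors' clusters, at 395 CPM in the 232 cells of TEC-d, 18.4 CPM in the 176 of TEC-b and 1.38 CPM in the 54 of TEC-c.

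**Figure D5:**
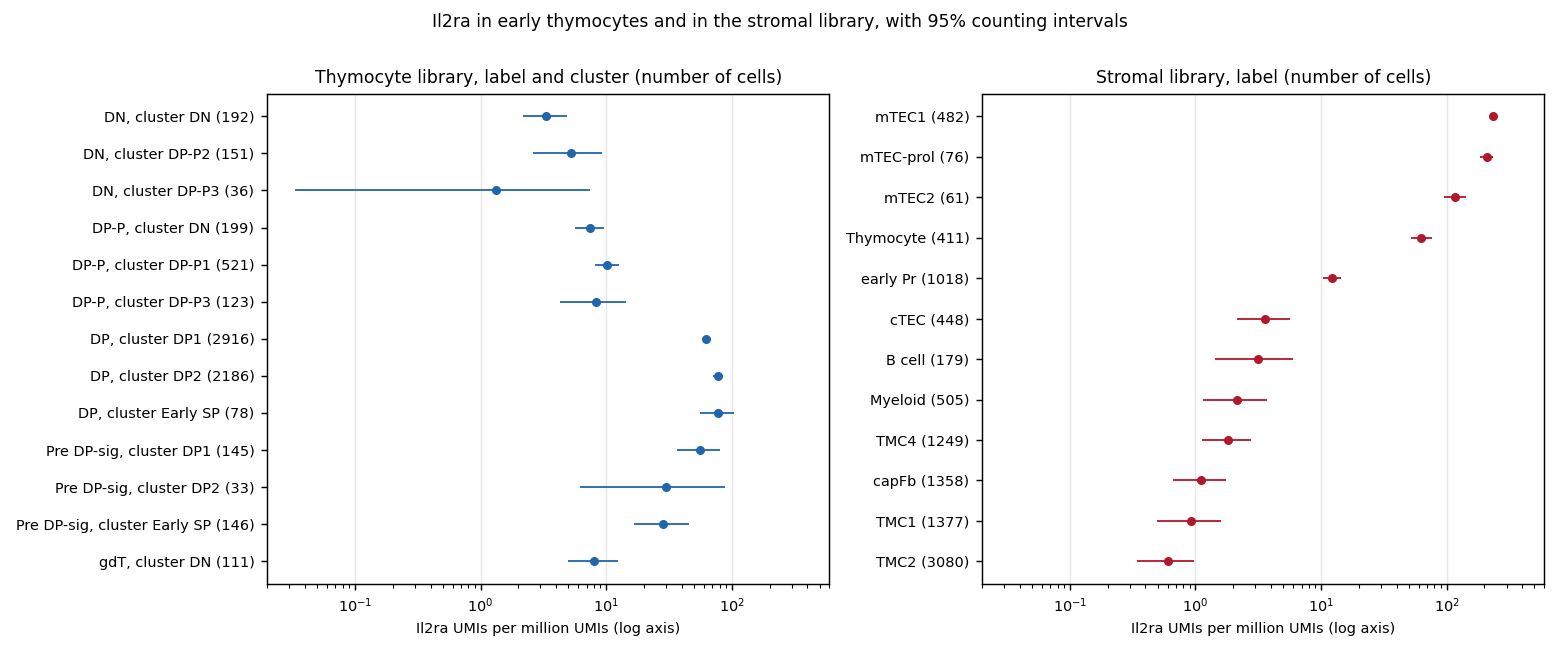
Il2ra level (CPM, log axis, with 95% intervals for counting error) by label and cluster in the early thymocytes (left, number of cells in brackets) and by label in the stromal library (right). The DN sets of the left panel lie between 1.33 and 5.21 CPM and the DP sets between 61.9 and 78.2 CPM, and on the right mTEC1 is highest at 234 CPM.

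The partners of the members' receptors were found in different stromal labels. Cd80 and Cd86, ligands of CTLA-4, were highest in mTEC2 at 118 CPM (96.1 to 143) and 86.8 CPM (68.4 to 109), and Cd80 had 51.2 CPM in mTEC-prol and 19.9 CPM in mTEC1. Tnfsf4, the OX40 ligand, was highest in mTEC2 at 28.6 CPM (18.5 to 42.2), on 25 UMIs in 7 cells. Tnfsf18, the GITR ligand, was highest in capFb cells at 32.9 CPM (30.2 to 35.8), on 532 UMIs in 353 of 1358 cells. Il15, whose receptor shares the beta and gamma chains with that of interleukin-2, had 132 CPM in TMC2 and 118 CPM in cTEC. Il2 itself had at most 3 UMIs in any stromal label.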

How the data were processed

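Thymocytes and CD45-negative stromal cells of Lewis rat thymus were each profiled as 1 droplet library, and the spatial section was not used. The deposited values are raw UMI counts per gene and barcode, made by the authors with Cell Ranger 8.0.0, Seurat 5.3.0 and genome build mRatBN7.2 per the submitters' processing notes, which give no role or order. The deposited percent of mitochondrial UMIs per cell was given by the authors and was used here for no filter. Each cell took the authors' projected label, or their cluster where none was given.

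UMIs were summed per label and divided by the label's total (CPM). Levels have exact Poisson intervals, shares exact Clopper-Pearson intervals and ratios an exact binomial split of both counts, all at 95% and for counting error alone. The limit for a share of 0 is 3 counts of the total, and not a Clopper-Pearson bound. A ratio against 0 UMIs was set against 3 UMIs per label, and none was given where both sides had 3 or fewer. A gene was compared where both sides together had at least 20 UMIs, and called at 2-fold. Labels of at least 20 cells entered the order. Cells were thinned to 1000 UMIs with seed 7. No doublet caller was run, and cells above the 99th percentile of UMIs of their label were left out as an alternative.

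Named genes are the 6 members, the 4 highest and 2 lowest ratios of each gene list, and the 3 most similar genes per member. Markers are named where they check a label. The members and lists were chosen with earlier results of these data known. The ratio and its interval were tested on simulated data, where counting error alone put some unchanged genes past 2-fold. Alternatives were filters on cells, thinning, the mean of cell CPM, totals that omit haemoglobin, ribosomal and mitochondrial genes, clusters in place of labels, other folds, minimums and offsets. Chosen after seeing the data were leaving out the cell with the most UMIs, cells with no thymocyte-marker UMI, DN cells by cluster, and leaving Cd79a out of the marker lists. Upstream sequences and gene neighbours are from RefSeq (GRCr8), a build other than that of the counts. Software versions were NumPy 2.4.6, pandas 2.3.3, SciPy 1.17.1 and matplotlib 3.10.9, under Python 3.11.15.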

Additional observations from a re-analysis of the deposited data

Results flagged for a closer look

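The stromal library held 2934 barcodes that the authors left without annotation, and no comparison above used them. Members had UMIs there above the 0.346 CPM that a count of 0 allows. Il2ra stood at 76.4 CPM, from 662 UMIs in 132 of these barcodes, against 17.8 CPM over the annotated stromal cells. Ikzf2 stood at 68.0 CPM, from 589 UMIs in 248 barcodes, against 47.4 CPM. Tnfrsf18 stood at 1.04 CPM, from 9 UMIs, against 0.950 CPM, and Tnfrsf4 at 1.50 CPM, from 13 UMIs, against 0.555 CPM. Foxp3 had no UMI and Ctla4 had 1. Which cells these barcodes hold was not tested.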

How the results depend on the processing

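Of 483 recomputed values for 96 results, 367 stayed within the spread allowed, 109 moved and 7 changed direction. Thinning to 1000 UMIs moved the Treg ratios over mature CD4 to at least 15.6 for Foxp3, 16.8 for Ctla4 and for Il2ra, 7.22 for Tnfrsf18 and 14.7 for Tnfrsf4, the AgoSel1 ratio of Ikzf2 over DP-sig to 2.23 and the DN ratio of Il2ra over DP to 0.0324. The thinned Treg and DN ratios rest on the few cells of a label that still held a UMI. Leaving out every cell with a UMI of the B cell and myeloid lists kept 9 Treg cells and gave 9.56 for Ctla4, 23.5 for Il2ra and 14.6 for Tnfrsf4, with Ikzf2 over DP-sig at 2.23 in AgoSel1 and 2.67 in AgoSel2. With Cd79a left out of those lists the AgoSel2 ratio was 2.56. The mean of cell CPM gave 2.34 for AgoSel1, and totals without mitochondrial, ribosomal and haemoglobin genes gave 2.74 for AgoSel2. Il2ra in DN over DP was 0.0916 between the authors' clusters and 0.0773 for DN cells of cluster DP-P2. The Ctla4 ratio moved as well for DN cells of cluster DP-P2, which had 4.74 CPM. Directions that turned were Il2ra in Pre-Treg over mature CD4, at 0.409 without marker-bearing cells and 0.963 without its top cell, and Ikzf2 in Treg over Pre-Treg, at 1.01 below the 99th percentile of UMIs, 3.49 without marker-bearing cells, 1.10 thinned, 1.13 as the mean of cell CPM and 1.04 without its top cell. For these the cause was not tested, beyond the cells left out.

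Counts of genes past the fold depended on the thresholds. The share of all genes past the fold was not taken at the other thresholds, so the counts below have no background beside them. With a higher minimum, a count can also fall because fewer genes had the UMIs to be compared. Other regulatory T cell genes higher in Treg numbered 3 on at least 50 UMIs and 13 with no minimum, against 8. At 3-fold, TNF receptor and NF-kB genes numbered 5 against 8, members higher in Pre-Treg 2 against 4, members higher in AgoSel2 3 against 5, and the Foxp3 partner and repressed list had 0 in either direction. IL-2 receptor and STAT5 genes higher in Treg numbered 2 on at least 50 UMIs, against 4, and lower 1 at 3-fold, against 3. With no minimum, CD28-family genes higher numbered 5 against 3 and Foxp3 partners 2 against 1. In AgoSel1 over DP-sig, members higher numbered 1 against 2 on at least 50 UMIs and receptor signal genes lower 0 against 1 at 3-fold. In AgoSel2 over DP-sig, members higher numbered 3 against 5 on at least 50 UMIs, and Ikaros genes 0 against 1, higher on at least 50 UMIs and lower at 3-fold. Members higher in AgoSel2 than AgoSel1 numbered 0 at 3-fold and 2 with no minimum, against 1. Members lower in DN numbered 3 with no minimum against 1 for DP, and 0 at 3-fold and 2 with no minimum against 1 for DP-P, and DN-stage genes lower numbered 1 on at least 50 UMIs against 2. With an offset of 1 CPM, 1 of the 3 genes most like Foxp3 was shared, and for the other members at least 2 of 3 were. Clusters could replace labels for DN against DP alone, since the authors' clusters do not separate Treg, Pre-Treg or AgoSel cells. No paired analysis was possible because a group here is a single sample. With 37 Treg cells and 121 Foxp3 UMIs in the library, depth limits what can be said of single labels.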
